A study of Mus musculus with 6 samples.

Results

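The cytosolic ribosomal protein genes were examined in mouse liver mRNA. They were chosen by name alone: gene symbols made of Rpl or Rps, a number and at most 1 further letter, together with Rplp0, Rplp1, Rplp2 and Rpsa. The symbols picked out 82 of the 48699 genes in the deposited table, and none occurred more than once. These comprised 43 proteins of the large subunit, 3 of its stalk, 30 of the small subunit and 6 paralogs, which are named as relatives of a standard subunit gene. The family was picked for description with results of these libraries already known, so its counts and medians describe the libraries and were given no test of their own.

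Adult male C57BL/6 mice, 10 to 12 weeks old, were compared after an overnight fast of 8 to 10 hours, and the column names of the deposited table mark every library as chow. The 3 control mice were Fxr fl/fl Shp fl/fl, that is, homozygous for floxed alleles of both genes. The 3 double knockout mice were Fxr-/- Shp-/- in hepatocytes only, so other liver cells keep both genes. FXR, encoded by Nr1h4, is the bile acid receptor, and SHP, encoded by Nr0b2, is a nuclear receptor that represses transcription. The labels do not name the Cre line. Each library was taken as 1 mouse, and p-values measure the spread between these libraries.

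Levels are given as FPKM, the number of fragments mapped to a gene divided by its transcript length and by the library total, so that genes can be compared per length. Nr1h4 stood at 59.8, 71.8 and 68.0 FPKM in controls 1 to 3. In double knockouts 1 to 3 it stood at 21.1, 15.5 and 22.0 FPKM (log2 fold change -1.73, limma adjusted p = 0.0172). Nr0b2 stood at 14.7, 17.6 and 18.7 FPKM against 0.216, 0.0734 and 0.293 FPKM (log2 fold change -3.91, limma adjusted p = 0.000277). Both genes therefore separated the libraries as labelled. Each library listed from 16087 to 16698 genes at more than 0 FPKM.

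The ribosome joins a small subunit, which reads the mRNA, to a large subunit, which forms peptide bonds, and each protein of the core is made in about equal numbers. Most ribosomal protein mRNAs begin with a cytosine followed by a run of pyrimidines, the 5′ terminal oligopyrimidine or TOP motif, through which their translation follows the growth kinase mTOR and the protein Larp1. Hepatocytes are rich in ribosomes and export large amounts of plasma protein.

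The start of the transcript, where the TOP motif lies, is shown for genes on which later comparisons turn. Each line gives 60 bases on the strand of the gene, 40 before the listed start and 20 from it on, taken from RefSeq on GRCm38.p6. Capitals mark a run of C followed by at least 4 bases that are all C or T, beginning within 5 bases of the listed start. The first 6 genes hold such a run and the last 3 do not.

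Rps27 (chr3:90213629-90213688, minus strand): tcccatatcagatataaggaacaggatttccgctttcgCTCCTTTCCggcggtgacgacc
Rps27l (chr9:66946046-66946105, plus strand): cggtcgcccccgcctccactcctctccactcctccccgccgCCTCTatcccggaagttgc
Rps18 (chr17:33955646-33955705, minus strand): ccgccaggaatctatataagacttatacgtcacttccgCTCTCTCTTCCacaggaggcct
Rpl12 (chr2:32961672-32961731, plus strand): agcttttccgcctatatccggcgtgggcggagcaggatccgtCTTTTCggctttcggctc
Rpl35 (chr2:39005112-39005171, minus strand): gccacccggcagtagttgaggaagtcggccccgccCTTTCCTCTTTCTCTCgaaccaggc
Rpl28 (chr7:4792925-4792984, plus strand): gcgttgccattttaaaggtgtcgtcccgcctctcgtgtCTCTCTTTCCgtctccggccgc
Rpl41 (chr10:128549149-128549208, minus strand): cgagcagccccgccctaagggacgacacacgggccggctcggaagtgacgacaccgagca
Rps3 (chr7:99483690-99483749, minus strand): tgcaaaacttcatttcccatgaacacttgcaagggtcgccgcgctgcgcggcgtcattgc
Rps4x (chrX:102189372-102189431, minus strand): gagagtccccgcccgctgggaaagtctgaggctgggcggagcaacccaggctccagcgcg

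The run as marked measured 16 bases in Rpl35, 10 in Rpl28 and 5 in Rps27l, the paralog of Rps27, whose own run measured 9 bases. In Rpl35 the bases just before the capitals are also C, so its unbroken pyrimidine stretch is longer than marked. RefSeq windows were found for 60 of the 82 genes, 72 windows in all, and Rps27l had a second window without a run. A run lay at the listed start in 30 of the 72 windows, or 41.67%, against 18.35% of all 32851 windows. Over the whole 300-base windows, the motif CCGGAAG, searched on both strands, was present in 36.11% of the ribosomal protein windows and 8.858% of all windows. The motif AAGATGGCG, searched on both strands, was present in 6.944% against 1.403%. TATAAA, searched on the strand of the gene, was present in 6.944% against 8.319%. A match describes the letters of a window, and listed starts can lie some bases from the start used in liver.

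The 76 core genes, that is all but the paralogs, spanned a 14.6-fold range of mean FPKM over the 6 libraries. They ran from 98.7 FPKM for Rpl15 to 1439 FPKM for Rplp1, a protein of the stalk that recruits elongation factors, with a median of 338 FPKM. Small subunit genes had a median of 374 FPKM and large subunit genes 293 FPKM. After Rplp1 came Rpl10, which is added late in large subunit assembly, at 874 FPKM, Rps27 at 858 FPKM, Rpl13a at 774 FPKM and Rps29 at 770.1 FPKM. Rps12, Rps24, Rps2, Rps18 and Rps15, all of the small subunit, completed the 10 most abundant, at 722, 718, 697, 640.4 and 608 FPKM. Thus 7 of these 10 encode small subunit proteins. Of the 82 genes, 79 had a mean of at least 0.5 FPKM and were tested. The other 3 are paralogs: Rpl10l and Rpl39l were listed at 0 FPKM in every library, and Rpl3l at no more than 0.0858 FPKM.

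The genes moved together from library to library. Their FPKM summed to 24237, 30349 and 45659 in controls 1 to 3 and to 23692, 21246 and 31886 in double knockouts 1 to 3. Control 3 therefore held 1.67 times the mean sum of the other controls, and double knockout 3 held 1.42 times that of the other double knockouts. As a share of all FPKM, the genes took 3.45%, 3.85% and 5.42% in the controls and 3.44%, 3.48% and 4.57% in the double knockouts. The groups overlapped: the mean share was 4.24% ± 1.04 in controls and 3.83% ± 0.640 in double knockouts (SD, n = 3). The difference in share was -0.409 percentage points, and without control 3 it was 0.183 percentage points in the other direction. In a bulk sample, fewer cells of a type and less RNA per cell cannot be told apart.

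**Figure D1:**
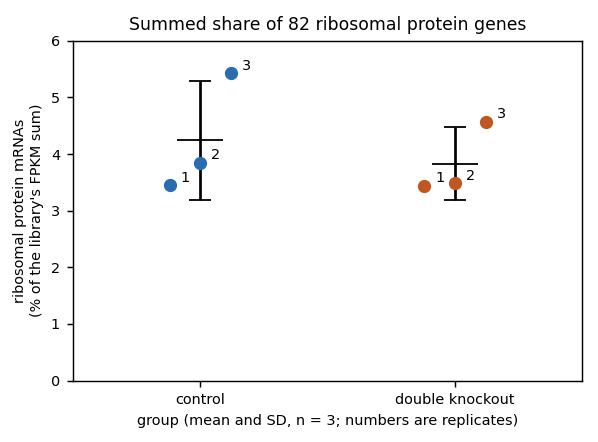
Share of each library's summed FPKM held by the 82 ribosomal protein genes (vertical axis, percent) in control and double knockout livers. Points are libraries with their replicate numbers, and bars give the mean and SD; replicate 3 is the highest point of each group, at 5.42% and 4.57%.

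Single genes followed the same order. Control 3 was the highest library for 77 of the 79 tested genes, and control 2 for Rpl28 and Rps4l. Double knockout 2 was the lowest for 69, double knockout 1 for 6, and a control for Rpl5, Rps4x, Rps3 and Rplp0. Double knockout 3 lay above control 1 in 74 genes and above both control 1 and control 2 in 42. The Pearson correlation of each gene's log2 values with the mean of the other tested genes had a median of 0.968 over the 6 libraries, and 70 genes exceeded 0.9. The highest was 0.999, for Rpl34. The lowest were 0.113 for Rps4l, 0.630 for Rpl28 and 0.707 for Rps3. These points share the 6 libraries and their scaling.

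**Figure D2:**
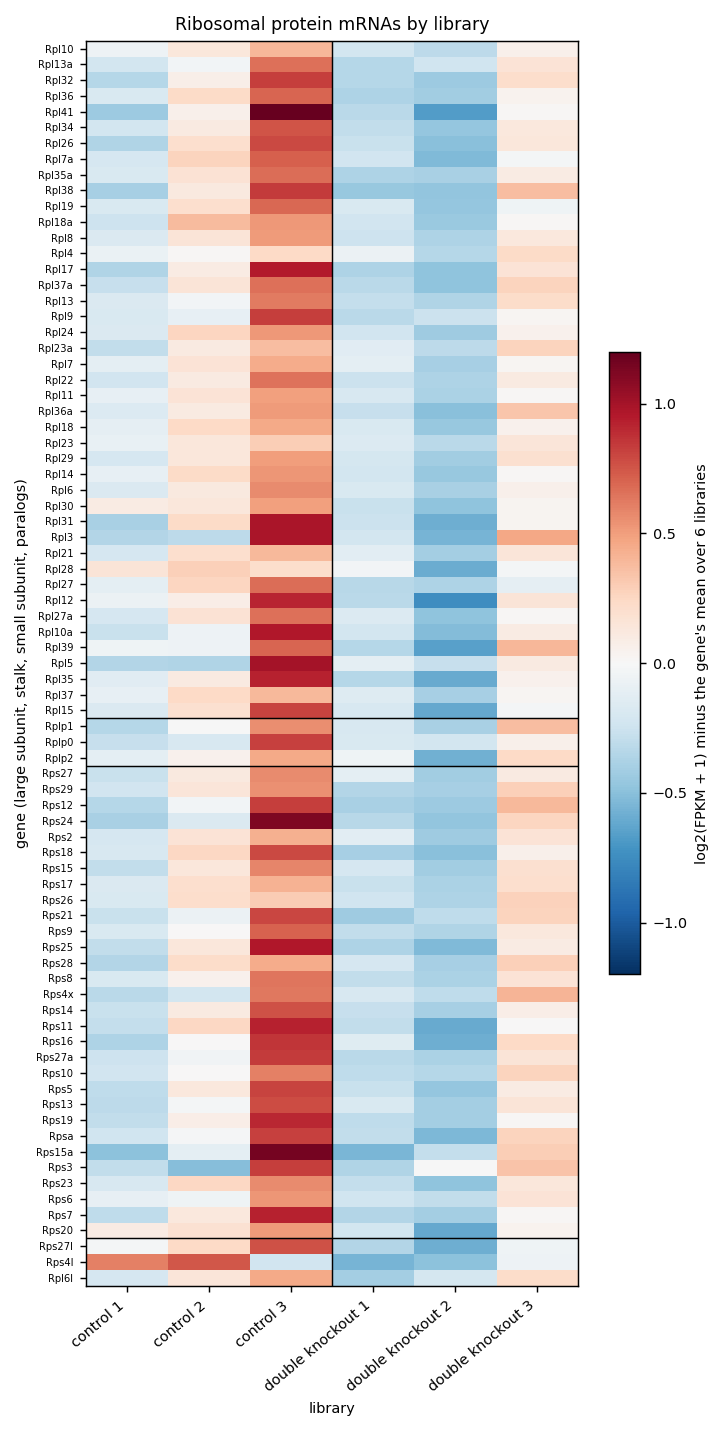
Heat map of the 79 tested ribosomal protein genes (vertical axis, ordered by role and then by mean level) in the 6 libraries (horizontal axis). Colour gives log2(FPKM + 1) minus the mean of the gene over the 6 libraries; the column of control 3 is the highest for 77 genes and that of double knockout 2 the lowest for 69.

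Set against each other as groups, the double knockouts had lower mean log2 values than the controls in 79 of 79 tested genes. On the scale of log2(FPKM + 1), the median log2 fold change, double knockout less control, was -0.37, while the median over all 11810 tested genes was -0.01. No gene of the family passed limma's adjusted p of 0.05, in either direction. Over all tested genes 17 were called lower, or 0.144%. The smallest adjusted p among the 79, from limma, was 0.293, for Rps4l. At an unadjusted p under 0.05, 5 were lower (Rpl27, Rpl30, Rps20, Rps27l and Rps4l), against 7.98% of all tested genes. The 3 double knockout values lay below the 3 control values without overlap in 4 genes (Rpl28, Rpl30, Rps20 and Rps27l), against 11.6% of all tested genes. Neither count, out of 79, exceeded its background share. Exact permutation of 3 against 3 libraries cannot give a p below 0.1.

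The size of the difference rested on control 3. Without it the median log2 fold change was -0.12, with 66 genes negative and 13 positive, and over all genes the median was -0.02. Rps4l then passed the limma threshold (log2 fold change -1.04, adjusted p = 0.0439), 1 gene of 79 against 0.746% of all tested genes. With libraries weighted by their spread, control 3 received a weight of 0.232, and Rps4l was again the single call (adjusted p = 0.0294 in limma), against 2.01% of all tested genes. In the authors' deposited table all 79 had a lower group FPKM in the double knockout. That deposited table called 1 of them, Rpl41 (q = 0.0346), against 1.73% of its tested genes.

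**Figure D3:**
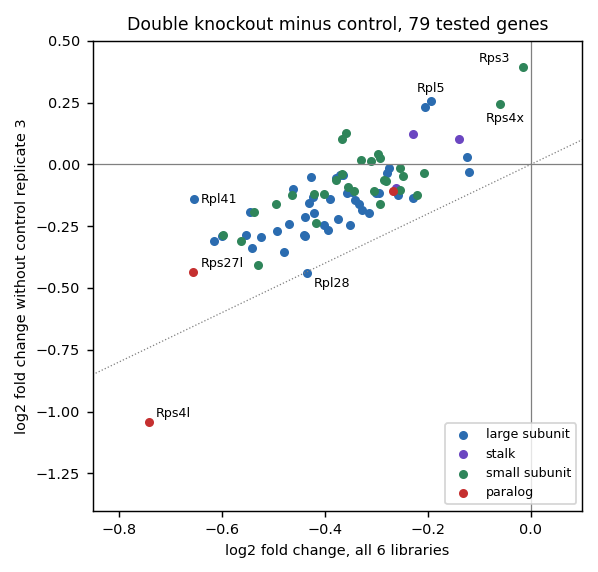
Log2 fold change of each of the 79 tested genes with all 6 libraries (horizontal axis) and without control 3 (vertical axis), coloured by role. The dotted line marks equal values: Rps3 and Rpl5 are positive without control 3, Rps4l lies far below the line, and Rpl28 lies on it.

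Among large subunit genes, all 43 had a negative log2 fold change, with a median of -0.39, or -0.16 without control 3, and limma called none. Rpl41, the shortest ribosomal protein, stood at 334, 471 and 1153 FPKM in controls, against 359.7, 282 and 457 FPKM in double knockouts. Only control 3 stood apart, and the groups overlapped. The log2 fold change was -0.65 ± 0.44 (SE; limma adjusted p = 0.513), and -0.14 without control 3. Rpl12, at the base of the stalk, stood at 165, 183 and 327 FPKM against 138, 103 and 193 FPKM. Double knockout 3 exceeded control 1 and control 2, and the log2 fold change was -0.61 ± 0.32 (SE; limma adjusted p = 0.414). Rpl35, near the exit of the peptide tunnel, stood at 111, 132 and 232 FPKM against 95.8, 79.9 and 126 FPKM. Its log2 fold change was -0.60 ± 0.30 (SE; limma adjusted p = 0.393), and double knockout 3 lay between controls 1 and 2.

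Rpl28 was the large subunit gene least like the others. It stood at 204, 225 and 212 FPKM in controls, against 179.5, 121 and 180.4 FPKM in double knockouts. Control 3 lay between the other controls and the groups did not overlap. The log2 fold change was -0.43 ± 0.19 (SE; limma adjusted p = 0.348) and -0.44 without control 3. Rpl28 was singled out after its values were seen, as were Rpl27, Rpl30 and Rps20.

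Rpl5 and Rpl11, which carry the 5S rRNA and bind the p53 regulator Mdm2, did not share one pattern. Rpl5 stood at 114, 113 and 292 FPKM in controls, against 134, 119.6 and 157 FPKM in double knockouts. All 3 double knockouts lay above controls 1 and 2 and below control 3. Its log2 fold change of -0.19 became 0.26 without control 3 (limma adjusted p = 0.831 and 0.356). Rpl11 stood at 251, 303 and 381 FPKM against 235, 208 and 272 FPKM, with log2 fold changes of -0.37 and, without control 3, -0.22.

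The large subunit genes with the smallest differences were Rpl4 and Rpl23a, which line the peptide tunnel and its exit. Rpl4 stood at 362, 385 and 450.3 FPKM against 363, 301 and 446 FPKM (log2 fold change -0.12 ± 0.20, SE). Rpl23a stood at 271, 357 and 431 FPKM against 301, 267 and 399 FPKM (log2 fold change -0.12 ± 0.24, SE). In both, double knockout 3 came close to control 3. Of other large subunit genes, Rpl10 had a log2 fold change of -0.31, Rpl13a, which also silences inflammatory mRNAs, -0.28, Rpl38, needed for Hox mRNA translation, -0.37, and Rpl22 -0.35. Limma's adjusted p for these 4 lay between 0.499 and 0.665.

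The 3 stalk genes had a median log2 fold change of -0.23, and 0.10 without control 3. Rplp1 stood at 1101, 1388 and 2055 FPKM in controls, against 1218, 1068 and 1804 FPKM in double knockouts. Rplp0, which anchors the stalk, stood at 275, 291 and 588 FPKM against 294, 285 and 347 FPKM. Rplp2 stood at 305, 341 and 454 FPKM against 318, 221 and 388 FPKM. Control 3 was highest in all 3 genes and the groups overlapped in each. Together they made up 6.66% to 6.94% of the family's FPKM in controls, against 7.41% to 7.96% in the double knockouts, shares that did not overlap. These shares were picked out after the values were seen and were not tested. Relative to the median ribosomal protein gene of each library, only Rplp1 lay higher in every double knockout than in any control. Rplp0 and Rplp2 overlapped on that scale.

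Among small subunit genes, all 30 had a negative log2 fold change, with a median of -0.34, or -0.08 without control 3, and limma called none. Rps18, at the head of the subunit, stood at 533, 726 and 1054 FPKM in controls, against 461, 431 and 637 FPKM in double knockouts. The groups overlapped through double knockout 3, and the log2 fold change was -0.56 ± 0.29 (SE; limma adjusted p = 0.403). Rps20 stood at 160.5, 169.6 and 213 FPKM against 128, 97.0 and 154 FPKM. Its groups did not overlap, and the log2 fold change was -0.53 ± 0.21 (SE; limma adjusted p = 0.313). Rps24 stood at 503, 584 and 1433 FPKM against 524, 474 and 791 FPKM. Control 3 alone set its control mean above that of the double knockouts, and its log2 fold change of -0.37 became 0.10 without that library.

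Rps3, which helps grip incoming mRNA, had the smallest difference of the family. It stood at 202, 174 and 441 FPKM in controls, against 193, 247 and 315 FPKM in double knockouts. Its log2 fold change was -0.02 ± 0.36 (SE) with all libraries and 0.39 ± 0.22 (SE) without control 3 (limma adjusted p = 0.991 and 0.331). Rps4x, the X-linked copy of S4, stood at 289, 311 and 563 FPKM against 317, 293 and 481 FPKM, with log2 fold changes of -0.06 and, without control 3, 0.24. Both genes were thus higher in the double knockout mean once control 3 was left out, and neither passed the test. Rps6, the substrate of the S6 kinases, stood at 202, 208 and 312 FPKM against 183, 176 and 242 FPKM (log2 fold change -0.25). Rps19, mutated in Diamond-Blackfan anaemia, had a log2 fold change of -0.46, Rpsa, also known as the laminin receptor, -0.38, and Rps27a, made as a fusion with ubiquitin, -0.37. Limma's adjusted p for these 3 lay between 0.508 and 0.609.

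The 3 tested paralogs had different patterns. Rps4l, a gene with a symbol like that of Rps4x and annotated at chr6:148354656-148355598 on GRCm38, plus strand, stood at 22.7, 25.1 and 12.3 FPKM in controls, against 9.60, 10.1 and 13.9 FPKM in double knockouts. Control 3, the highest library for nearly all other genes, was here the lowest control and lay below double knockout 3. The log2 fold change was -0.74 ± 0.28 (SE; limma adjusted p = 0.293), and -1.04 ± 0.18 (SE) without control 3. GENCODE M21 annotates Rps4l as a transcribed processed pseudogene, not as a protein-coding gene. Reads can be shared between near-identical ribosomal protein copies, and no source used here states how those were assigned, so the level of Rps4l is uncertain. Rps27l, a p53 target gene, stood at 382, 457 and 658 FPKM against 304, 258 and 373 FPKM. Its groups did not overlap, and the log2 fold change was -0.66 ± 0.25 (SE; limma adjusted p = 0.294). Rpl6l, annotated as a processed pseudogene, stood at no more than 1.73 FPKM in any library.

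Ratios between a paralog and its partner remove what is common to the pair in a library. Rps27l to Rps27 came to 0.548, 0.502 and 0.532 in the controls and 0.393, 0.411 and 0.414 in the double knockouts. These ratios did not overlap, with means of 0.527 ± 0.0235 and 0.406 ± 0.0114 (SD, n = 3), and control 3 lay within its group. Rps4l to Rps4x came to 0.0787, 0.0806 and 0.0218 against 0.0303, 0.0345 and 0.0290, so control 3 lay below all double knockouts. Rpl22l1 to Rpl22 came to 0.355, 0.389 and 0.830 against 0.396, 0.323 and 0.695. Here replicate 3 was high in both groups. Ratios of Rpl36al, Rpl7l1 and Rpl6l to their partners were also computed, and the groups overlapped in each. Rps27l to Rps27 was the only computed pair whose groups did not overlap. The Rps27l ratio was picked out after the values were seen, so it is a description without a test.

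**Figure D4:**
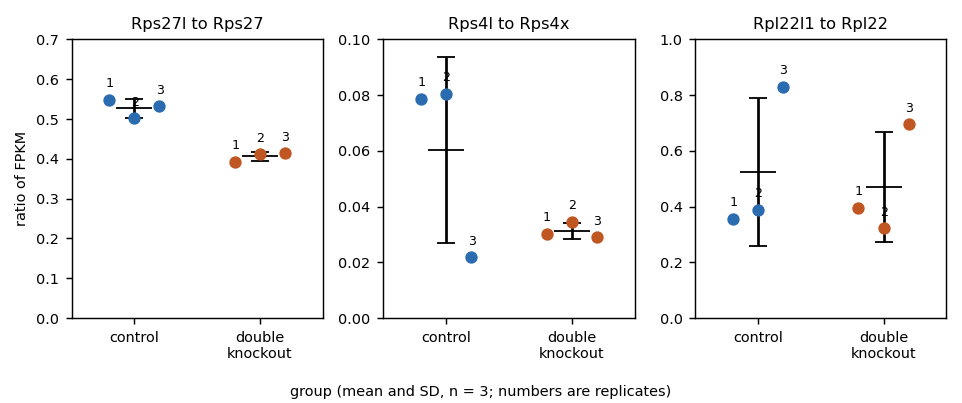
Ratio of paralog FPKM to partner FPKM (vertical axes, each from 0) in control and double knockout livers for 3 pairs. Points are libraries with replicate numbers and bars the mean and SD; for Rps27l to Rps27 the controls lie between 0.502 and 0.548 and the double knockouts between 0.393 and 0.414.

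Relative to the median ribosomal protein gene of the same library, on the log2 scale, Rps4x lay at 0.063, -0.098 and 0.072 in the controls and 0.163, 0.245 and 0.427 in the double knockouts. Rps18 lay at 0.948, 1.122 and 0.977 against 0.705, 0.799 and 0.834. Within the family, therefore, Rps4x ranked higher and Rps18 lower in each double knockout than in any control. After libraries were scaled to this median gene, limma's smallest adjusted p among the 79 was 0.521, for Rps4x.

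The presence of a pyrimidine run in the RefSeq window went with little difference in fold change. The 28 genes with a run had a median log2 fold change of -0.41, the 29 tested genes with windows but no run -0.34, and the 22 without a window -0.36. Rpl41, among the lowest fold changes, and Rps3, the highest, both lacked the run.

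Ribosomal protein mRNAs are short, and short mRNAs of other genes differed between the groups in the same direction. The 79 tested genes had a median annotated transcript length of 878 bases against 2759 for all tested genes. Other genes of 500 to under 1000 bases had a median log2 fold change of -0.28 (862 genes), those of 2000 to under 4000 bases -0.01 (4582 genes), and those of 4000 bases or more 0.16 (3339 genes). Among other genes of 500 to under 1000 bases with a mean of at least 100 FPKM, the median was -0.46 (144 genes). The 41 ribosomal protein genes of that length had a median of -0.38. After each library's smooth trend with length and GC content was removed, the median of the 79 was -0.18, with 72 negative and 7 positive. At 1000 to under 2000 bases the ribosomal protein median was -0.34 (23 genes), against -0.28 for other genes of at least 100 FPKM (319 genes). At 2000 to under 4000 bases it was -0.37 (4 genes) against -0.12 (242 genes). With all 6 libraries the ribosomal protein median was thus above that of other abundant genes in the shorter class and below it in these 2. Without control 3 it was also above at 1000 to under 2000 bases, at -0.14 against -0.19. It was then -0.12 against -0.33 at 500 to under 1000 bases, and -0.19 against -0.03 at 2000 to under 4000 bases. The 4 genes of the longest of these classes include Rps20, whose annotated length looked too long.

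**Figure D5:**
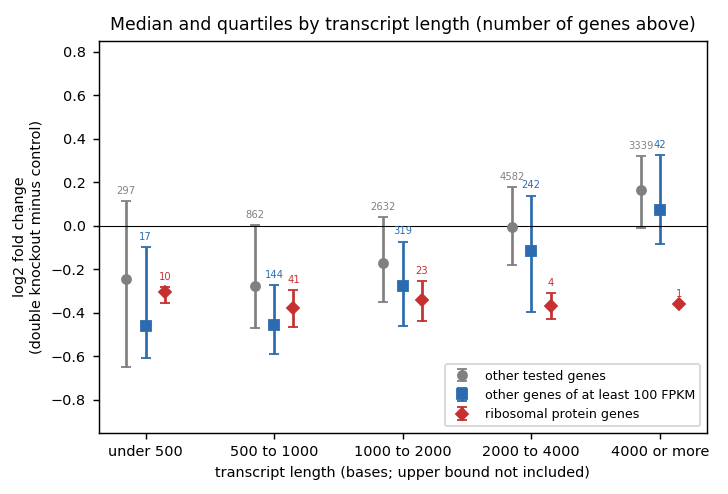
Median log2 fold change (double knockout minus control, vertical axis) by annotated transcript length (horizontal axis, bases) for ribosomal protein genes, other tested genes, and other genes of at least 100 FPKM. Bars span the quartiles and small numbers count genes; the medians of other genes go from -0.28 at 500 to under 1000 bases to 0.16 at 4000 or more.

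Of ribosomal proteins whose symbols fall outside the naming rule, all 7 found had negative log2 fold changes, with a median of -0.47, and limma called none. Without control 3 the median was -0.27, and Rpl22l1 turned positive, at 0.15. Rps3a1, of the small subunit, stood at 244, 288 and 417 FPKM in controls, against 240.5, 215 and 279 FPKM in double knockouts. Its groups overlapped, and the log2 fold change was -0.34 (limma adjusted p = 0.517). Of 18 elongation factors and other TOP mRNAs, 14 were negative and limma called none, with a median of -0.24. Eef1a1, which delivers aminoacyl-tRNA, stood at 2111, 2539 and 4130.5 FPKM against 1991, 1892 and 2328 FPKM, while Eef2, which drives translocation, stood at 378, 370.4 and 426 FPKM against 403, 409 and 497 FPKM. Control 3 was the highest library for Eef1a1, and double knockout 3 for Eef2.

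Ribosome assembly factors were summed over the same libraries. Of 26 ribosome biogenesis genes 22 were negative and limma called none, with a median of -0.19. Without control 3 the median was -0.29, and limma called 1 lower, Nop56 (log2 fold change -0.97, adjusted p = 0.0233). Their summed FPKM was 341, 351 and 273 in controls 1 to 3, and 292, 256 and 276 in double knockouts 1 to 3. Control 3, highest in ribosomal protein mRNAs, was thus the lowest control and lay within the double knockout range. Double knockout 2, lowest in ribosomal protein mRNAs, was also the lowest library here. Nop56, a box C/D snoRNP protein, stood at 15.8, 17.2 and 8.26 FPKM in controls, against 8.28, 7.87 and 7.72 FPKM in double knockouts. Of 21 initiation factors 14 were negative (median -0.14), and of 20 tested regulators of ribosomal protein mRNAs 9 were negative (median 0.07), and limma called none in either list. The most abundant regulator, Eif4ebp2, which restrains cap-dependent initiation, stood at 26.2, 13.2 and 32.4 FPKM against 38.9, 46.3 and 51.9 FPKM. Its groups did not overlap, with a log2 fold change of 0.98 (limma adjusted p = 0.234), and the authors' deposited table called it higher (q = 0.00226). Of the 20 tested regulators, 7 lay higher and 2 lower in the double knockouts without overlap. Over all 11810 tested genes 1334 lay higher and 1365 lower in this way. Other lists held such genes too: 5 of 26 ribosome biogenesis genes lay lower and 0 higher. Of 21 initiation factors, 5 lay lower and 1 higher. For the 18 elongation factors and other TOP mRNAs the counts were 2 lower and 1 higher. For the 7 ribosomal proteins outside the naming rule they were 2 and 0. These counts were not tested. Rheb, the next most abundant regulator, went the other way from Eif4ebp2, at 40.6, 41.2 and 32.3 FPKM against 27.6, 28.6 and 29.0 FPKM. The groups of Rheb did not overlap, with a log2 fold change of -0.40 (limma adjusted p = 0.285). Eif4ebp1 was also lower, with a log2 fold change of -0.23 and overlapping groups. Larp1, which binds TOP mRNAs, stood at 24.1, 21.1 and 10.8 FPKM against 28.6, 28.5 and 24.1 FPKM, lowest in control 3.

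Other gene groups also differed between libraries, not all in the order of the ribosomal proteins. The 15 immediate-early genes, which respond quickly to many stimuli, summed to 105, 130 and 947 FPKM in controls, against 122, 108 and 278 FPKM in double knockouts. Replicate 3 was the highest of each group, as for the ribosomal proteins. Limma called none of the 15, and the authors' deposited table called 10 lower, against 1.73% of its tested genes. The 3 neutrophil markers summed to 1.98, 0.717 and 47.1 FPKM against 1.44, 9.87 and 16.8 FPKM, with Ly6g at 0 in all libraries but control 3. All 7 macrophage markers had positive log2 fold changes. Limma called 1 of them, Mpeg1, higher, against 20 of all 11810 tested genes. The authors' deposited table called 4 higher (Mpeg1, Csf1r, Marco and Adgre1), and its share called higher over all genes is not given here. The 7 macrophage markers summed to between 45.4 and 104 FPKM in controls, against between 108 and 220 FPKM in double knockouts. Mpeg1 alone stood at 5.12, 7.12 and 17.7 FPKM against 58.2, 73.5 and 57.3 FPKM. It was the 1 marker of the 7 whose groups did not overlap. The 4 erythroid markers summed to 806 FPKM in control 3 and 1142 FPKM in double knockout 2, the libraries with the highest and lowest ribosomal protein sums. The 5 cholangiocyte markers summed to between 33.7 and 44.2 FPKM in controls and between 59.1 and 63.7 FPKM in double knockouts. Most of each sum was Spp1, at 31.1, 34.3 and 42.6 FPKM against 55.2, 59.5 and 60.9 FPKM. The other cholangiocyte markers stood at no more than 1.54 FPKM in any library. The authors' deposited table called Spp1 higher (q = 0.0346), and limma did not (adjusted p = 0.146). Endothelial markers summed to 25.1 to 46.4 FPKM and stellate cell markers to 18.7 to 35.3 FPKM, with the groups overlapping. T and NK cell, B cell and dividing cell markers each summed to at most 7.14 FPKM in any library. The 6 hepatocyte markers were all present, led by Alb, and limma called none. Their log2 fold changes were all negative, from -0.77 for Alb to -0.04 for Pck1 and -0.01 for Cps1. Without control 3, 5 were negative and 1, Pck1, was positive at 0.03. The part of these genes and cells in the ribosomal protein values was not tested.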

How the data were processed

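Liver mRNA of 3 control and 3 double knockout mice was sequenced, and the sample titles gave each library its group and number. Per the labels, a stranded mRNA kit was used on 1 µg of RNA. The authors deposited FPKM per gene and library, and a group comparison with a p-value and q-value per gene. The submitters' processing notes list Cuffdiff 2.2.1, STAR 2.4.2a, Picard 1.119, Trimmomatic and bcl2fastq 2.17.1.14, with the build GRCm38 (mm10), and no roles. How multiply mapped reads and strand were handled is not stated in these sources. FPKM are not counts, and depth was not analysed here.

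The 11810 genes averaging at least 0.5 FPKM were compared on log2(FPKM + 1) by limma 3.58.1 (R 4.3.3), using its trend option and Benjamini-Hochberg adjustment over all of them at 0.05. The pseudocount understates changes of low genes. Values with ± are SD over n = 3 unless SE is named. Lengths, GC content and positions came from GENCODE M21 (the longest principal transcript), and the trend was fitted with mgcv 1.9.3. Start windows came from RefSeq. Scripts were tested on simulated data.

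The members, the lists and the alternatives were chosen with earlier results of these data known. Named genes were any called, the 10 most abundant, the 5 highest and 5 lowest fold changes with a mean of at least 1 FPKM, paralogs, and genes with roles beyond the core; for each other list, called or most abundant genes. Genes named outside this rule (Rpl27, Rpl28, Rpl30, Rps20, Rpl15, Rpl34, Rpl6l, Nop56 and the Rpl22l1, Rpl36al, Rpl7l1 and Rpl6l ratios) were chosen after their values were seen. Alternatives were other pseudocounts, filters and scalings, library weights, a replicate block, summed symbols, removal of the length and GC trend, and leaving out each library. 1 gene of the lists is not reported here.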

Additional observations from a re-analysis of the deposited data

How the results depend on the processing

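No ribosomal protein gene was called higher under any alternative run. The count called lower was 0 with all 6 libraries and stayed 0 under the other alternatives, except 1 (Rps4l) with library weights and between 0 and 1 when single libraries were left out, the 1 arising without control 3. The median log2 fold change of the family stayed negative, between -0.55 and -0.12, closest to 0 without control 3 and with quantile normalization, leaving aside scaling to the family's own median gene, which sets it near 0. The difference in summed share ranged from -0.80 to 0.18 percentage points when single libraries were left out, positive only without control 3. The replicate numbers could not be shown to pair the samples, since the correlations of same-numbered deviations were 0.22, -0.08 and 0.30 and 2 of the 3 controls correlated best with their own number. With the replicate block the number of ribosomal protein genes called was 0, and 12 had an unadjusted p under 0.05. Scaling all libraries to the same FPKM sum moved the median of all tested genes to 0.16 and left the family at -0.14, with 9 genes positive.

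The directions of 10 named genes turned under at least 1 alternative; of 683 such values 47 turned, and the cause was not tested. With the same FPKM sum the log2 fold changes were 0.10 for Rpl23a, 0.10 for Rpl4, 0.0284 for Rpl5, 0.0833 for Rplp1, 0.21 for Rps3 and 0.16 for Rps4x. With quantile normalization they were 0.11 for Rpl23a, 0.14 for Rpl4, 0.0518 for Rpl5, 0.0355 for Rplp0, 0.22 for Rps3 and 0.24 for Rps4x. With library weights they were 0.17 for Rpl5, 0.0283 for Rplp0, 0.27 for Rps3 and 0.14 for Rps4x. With the length and GC trend removed they were 0.12 for Rpl23a, 0.0286 for Rpl4, 0.13 for Rplp1, 0.0030 for Rps27, 0.0836 for Rps3 and 0.12 for Rps4x. With that trend fitted without the ribosomal protein genes, an alternative chosen after seeing the data, they were 0.11 for Rpl23a, 0.0286 for Rpl4, 0.12 for Rplp1, 0.0046 for Rps27, 0.0843 for Rps3 and 0.12 for Rps4x. A second rule for the transcript length was also chosen after seeing the data, because the lengths of a few genes (Rps20 and Rps15a) looked too long; it left both long and the first rule was kept. With that rule the family's median was -0.17, and the values were 0.11 for Rpl23a, 0.0238 for Rpl4, 0.13 for Rplp1, 0.0134 for Rps27, 0.0779 for Rps3 and 0.12 for Rps4x. When single libraries were left out, the values spanned -0.30 to 0.0315 for Rpl23a, -0.26 to 0.0204 for Rpl4, -0.42 to 0.26 for Rpl5, -0.43 to 0.12 for Rplp0, -0.36 to 0.10 for Rplp1, -0.57 to 0.0412 for Rps12, -0.65 to 0.10 for Rps24, -0.27 to 0.39 for Rps3 and -0.28 to 0.24 for Rps4x; the positive ends came without control 3, except for Rpl4, which was positive without double knockout 2. Of the other lists, the median of ribosome biogenesis was 0.0130 and that of initiation factors 0.0810 with the same FPKM sum. The median of the regulators was -0.0099 with the trend removed, -0.0105 with it fitted without the ribosomal protein genes and -0.0188 under the second length rule. The median of the immediate-early genes was 0.0213 with the same FPKM sum, 0.41 with library weights, and between -0.98 and 0.80 when single libraries were left out.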
